A study of Homo sapiens with 2 samples.

Results

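The 33 genes described here carry out or control the synthesis, uptake, transport, esterification and efflux of cholesterol, and were taken by name from a list of pathway members, out of 33747 genes named in the data. They comprise 18 synthesis enzymes, 5 regulators of the sterol regulatory element binding proteins (SREBPs), 6 genes of uptake and intracellular transport, and 4 genes of esterification and efflux. Poly-A RNA was sequenced from LM3, a human hepatocellular carcinoma cell line, in 2 libraries: 1 from cells labelled NCOA5 knockout and 1 from wild-type LM3 cells. NCOA5 encodes a coregulator of nuclear receptors. No treatment is given for either library, and the labels do not say how the knockout was made or whether the cells are a clone. Values are FPKM, fragment numbers scaled to transcript length and library size. With 1 library per genotype there is no replicate error and no test, so each difference below compares these libraries and is described by size alone.

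Cells make cholesterol from acetyl-CoA through mevalonate, isoprenoid diphosphates, squalene and lanosterol. SREBPs are transcription factors held in the endoplasmic reticulum membrane. When membrane sterol is low, the escort protein SCAP carries them to the Golgi, where they are cut and released to activate genes of sterol synthesis and uptake. When sterol is high, INSIG proteins hold SCAP and SREBP in the endoplasmic reticulum. Oxysterols made from cholesterol activate the liver X receptors (LXRs), which raise genes of cholesterol efflux. The liver is a main site of cholesterol synthesis, of lipoprotein uptake and of sterol secretion.

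NCOA5, the gene named as targeted, did not have a lower total in the knockout-labelled library. It had 25.4 FPKM in the knockout-labelled library and 20.03 FPKM in wild type, a log2 ratio of 0.33. In the knockout-labelled library, forms with the whole of 1 internal coding exon had 11.9 FPKM, or 46.8% of the total, forms with a shortened version had 3.97 FPKM, or 15.6%, and forms without it had 9.55 FPKM, or 37.6%. The wild-type library listed 0 events that skip or shorten this exon. Both libraries carried the epithelial keratins at high levels, with KRT8 at 2217 FPKM in the knockout-labelled library and 2094 FPKM in wild type. The other epithelial markers were low. CDH1 had 3.11 FPKM in the knockout-labelled library and 2.25 FPKM in wild type, and EPCAM was under 1 FPKM in both. Of 7 hepatocyte markers 5 were measured. FGB had 4.73 FPKM in the knockout-labelled library and 1.37 FPKM in wild type, and TF had 15.4 FPKM in the knockout-labelled library and 10.7 FPKM in wild type. AFP had 6.48 FPKM in the knockout-labelled library and 8.80 FPKM in wild type. The markers thus differed in direction: HNF4A had 17.4 FPKM in the knockout-labelled library and 17.5 FPKM in wild type, ALB had 2.92 FPKM in the knockout-labelled library and 1.41 FPKM in wild type, and APOA1 and SERPINA1 were under 1 FPKM in both libraries. Summed fibroblast markers were 29.4 FPKM in the knockout-labelled library and 14.8 FPKM in wild type, nearly all of it LUM, and summed endothelial markers were 1.25 and 1.37 FPKM in the same libraries. Summed leukocyte markers were 1.91 FPKM in the knockout-labelled library and 0.958 FPKM in wild type, of which LYZ was 1.77 and 0.914 FPKM, and CD68, a macrophage marker, was listed at 0 in both. The part of these marker differences in the results below was not tested. Sequencing depth is unknown, and an exact 0 can be a failed estimate.

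Cholesterol genes were lower in the knockout-labelled library than in wild type, mostly by small amounts. A gene was measured where its larger value reached 1 FPKM, which 29 of the 33 did, and its log2 ratio compares the knockout-labelled with the wild-type value after adding 1 FPKM to each. The members were chosen with earlier results of these data known, so the comparisons below describe these libraries and are not independent of them. Of the 29, 27 had a log2 ratio below 0, or 93.1%, against 48.5% of the 10842 measured genes. Their median log2 ratio was -0.26, against 0.01 over all measured genes, and 16 of the 29 lay below the lower quartile of all measured genes, which was -0.20. At least 1.25-fold lower were 11 of the 29, or 37.9%, against 16.7% of all measured genes, and 0 were at least 1.25-fold higher, against 15.1%. The 1.25-fold mark was added after the values were seen. Larger differences were few. At least 1.5-fold lower were 3 genes, INSIG1, IDI1 and HSD17B7, or 10.3%, against 8.12% of all measured genes, and 0 were 1.5-fold higher, against 6.47%. At the 2-fold mark used for a call, INSIG1 and IDI1 were lower, or 6.9%, against 3.76% of all measured genes, and 0 were higher, against 2.83%. The shares at the 1.5-fold and 2-fold marks are near those of all genes, and each rests on a few genes. Fewer cells with a transcript and less RNA per cell cannot be told apart in bulk RNA.

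Shares were similar among genes at higher levels. Of the 27 members at 5 FPKM or more in the larger library, 25 had a log2 ratio below 0, against 48.6% of the 8089 genes at that level and above 0 in both libraries. At least 1.25-fold lower were 11 of these 27, against 13.8% of those 8089 genes.

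**Figure D1:**
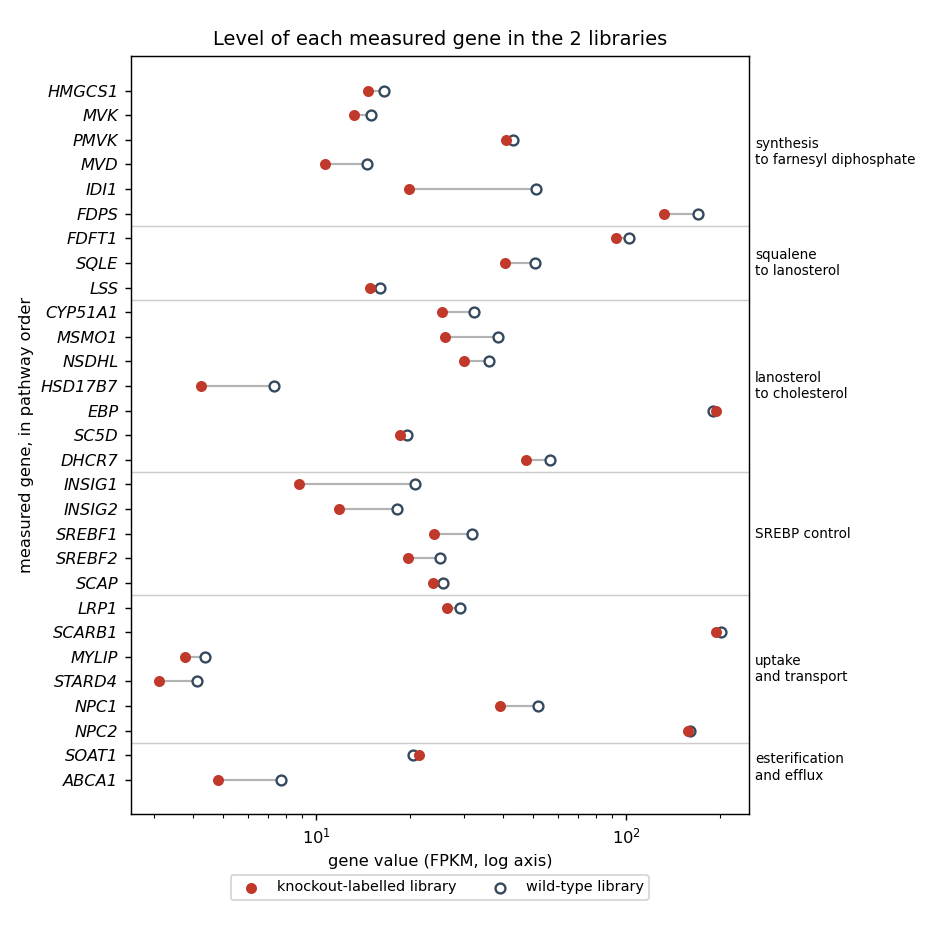
Level of each of the 29 measured genes in FPKM on a log axis, in pathway order from top to bottom, with filled points for the knockout-labelled library and open points for wild type. The filled point lies left of the open one in 27 of 29 genes, and the widest gaps are those of IDI1 (19.9 FPKM knockout-labelled, 51.0 FPKM wild type) and INSIG1 (8.80 FPKM knockout-labelled, 20.9 FPKM wild type).

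Enzymes from acetyl-CoA to farnesyl diphosphate were lower in the knockout-labelled library in 6 of 6 measured cases, against 48.5% of all measured genes. Their median log2 ratio was -0.27. HMGCS1, which makes HMG-CoA, had 14.7 FPKM in the knockout-labelled library and 16.5 FPKM in wild type. Mevalonate kinase, MVK, had 13.2 FPKM in the knockout-labelled library and 15.0 FPKM in wild type. Phosphomevalonate kinase, PMVK, had 40.96 FPKM in the knockout-labelled library and 43.2 FPKM in wild type. These 3 early steps differed little, with log2 ratios of -0.16, -0.18 and -0.07. MVD, the decarboxylase that yields isopentenyl diphosphate, had 10.7 FPKM in the knockout-labelled library and 14.6 FPKM in wild type, a log2 ratio of -0.41. FDPS, which joins isoprenoid units into farnesyl diphosphate, was the most abundant of these enzymes, at 133 FPKM in the knockout-labelled library and 170 FPKM in wild type, a log2 ratio of -0.36. ACAT2, the cytosolic thiolase that opens the pathway, was listed at 0 in both libraries and has no ratio.

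IDI1, the isomerase that balances the pair of isoprenoid building blocks, had the largest difference of the 29 genes, and that difference lay in a start event seen in wild type alone. IDI1 (ENSG00000067064.11, chromosome 10, 1039152 to 1049170 on hg38, minus strand) had 19.9 FPKM in the knockout-labelled library and 51.0 FPKM in wild type, a log2 ratio of -1.32. At its annotated start, chr10:1048864-1049170, it had 19.9 FPKM in the knockout-labelled library and 24.1 FPKM in wild type, a log2 ratio of -0.26. A second start exon of 31 bases, chr10:1056309-1056339, had 26.9 FPKM in wild type and was not listed in the knockout-labelled library. It lies 7169 bases upstream of the gene's start in GENCODE 29, inside WDR37 on the other strand, and its junction is at no GENCODE 29 exon boundary. WDR37 itself had 3.01 FPKM in the knockout-labelled library and 3.38 FPKM in wild type, and IDI2-AS1, which overlaps the same stretch, was listed at 0 in both. RefSeq places an IDI1 start at position 1056704, 365 bases from the upstream exon. The use of strand in counting is not given, so reads of the overlapping genes may not be told apart. Over the 412 measured genes of chromosome 10 the median log2 ratio was -0.19, and how far that shift enters the IDI1 values was not tested.

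Promoters from RefSeq (GRCh38.p14) are shown for IDI1 because its total depends on which start is counted. Each runs from 250 bases before to 50 after a RefSeq start, read 5′ to 3′ on the gene's strand. The first, chr10:1049070-1049369 on the minus strand, belongs to the start at 1049119, which is 51 bases from the start event found in both libraries. The second, chr10:1056655-1056954 on the minus strand, belongs to the upstream start at 1056704. Capitals mark matches on either strand to the CCAAT box (CCAAT), the GC box (GGGCGG), the E-box (CACGTG) and the sterol regulatory element, searched as TCACNCCAC. Where matches overlap or abut they form 1 run of capitals.
IDI1 start found in both libraries: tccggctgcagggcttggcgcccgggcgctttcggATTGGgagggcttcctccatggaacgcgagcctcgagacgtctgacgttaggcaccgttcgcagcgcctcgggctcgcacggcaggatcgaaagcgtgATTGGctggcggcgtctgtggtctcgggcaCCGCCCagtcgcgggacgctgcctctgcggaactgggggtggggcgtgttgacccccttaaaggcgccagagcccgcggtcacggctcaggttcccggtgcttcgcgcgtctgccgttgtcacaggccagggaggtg
IDI1 upstream start: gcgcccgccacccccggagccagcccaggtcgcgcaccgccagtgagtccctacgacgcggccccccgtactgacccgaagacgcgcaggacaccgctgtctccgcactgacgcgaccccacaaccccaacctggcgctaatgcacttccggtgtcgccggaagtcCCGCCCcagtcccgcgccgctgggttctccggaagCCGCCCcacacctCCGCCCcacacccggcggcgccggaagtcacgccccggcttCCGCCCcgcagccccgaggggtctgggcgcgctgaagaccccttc
The window of the shared start holds 2 CCAAT boxes and 1 GC box. The upstream window holds 4 GC boxes and 0 CCAAT boxes, and neither holds the other motifs.

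Steps from squalene to lanosterol were lower in 3 of 3 genes, against 48.5% of all measured genes. Their median log2 ratio was -0.13, with none at 1.25-fold, against 16.7% of all measured genes. FDFT1, squalene synthase, had 92.7 FPKM in the knockout-labelled library and 102 FPKM in wild type. SQLE, the epoxidase that adds oxygen to squalene, had 40.6 FPKM in the knockout-labelled library and 50.7 FPKM in wild type, a log2 ratio of -0.31 that lay just short of the 1.25-fold mark. LSS, which closes the rings to form lanosterol, had 14.9 FPKM in the knockout-labelled library and 16.1 FPKM in wild type by its end events. By its start event it had 5.997 FPKM in the knockout-labelled library and 7.75 FPKM in wild type. The 2 sums of LSS therefore disagree on the level in both libraries but not on the direction.

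Between lanosterol and cholesterol 6 of 7 measured enzymes were lower in the knockout-labelled library, against 48.5% of all measured genes. Their median log2 ratio was -0.26. CYP51A1, the cytochrome P450 that demethylates lanosterol, had 25.5 FPKM in the knockout-labelled library and 32.3 FPKM in wild type, a log2 ratio of -0.33. MSMO1, a methylsterol oxidase, had 25.97 FPKM in the knockout-labelled library and 38.5 FPKM in wild type, a log2 ratio of -0.55. HSD17B7, a keto reductase, had 4.26 FPKM in the knockout-labelled library and 7.27 FPKM in wild type, a log2 ratio of -0.65, and was the lowest of the measured enzymes in level. These 3 were the members of this segment beyond 1.25-fold. At its start above 0 in both libraries HSD17B7 had a log2 ratio of -0.29, short of that mark. NSDHL, the decarboxylating dehydrogenase, had 29.9 FPKM in the knockout-labelled library and 36.1 FPKM in wild type. DHCR7, the reductase of the last step, had 47.5 FPKM in the knockout-labelled library and 56.7 FPKM in wild type. The desaturase SC5D had 18.6 FPKM in the knockout-labelled library and 19.5 FPKM in wild type. Differences in these 3 were smaller, with log2 ratios from -0.26 to -0.07. EBP, the sterol isomerase, was the exception, at 195 FPKM in the knockout-labelled library and 190 FPKM in wild type, a log2 ratio of 0.04. TM7SF2, a sterol reductase, was listed at 0 in both libraries, at each of its 7 start events. Its locus is shared with VPS51, which had 33.3 FPKM in the knockout-labelled library and 37.2 FPKM in wild type. Whether that sharing enters the 0 of TM7SF2 was not tested.

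All 5 measured genes of SREBP control were lower in the knockout-labelled library, against 48.5% of all measured genes. Their median log2 ratio was -0.39, though SCAP was higher when starts above 0 in both libraries were counted alone. INSIG1 was lower by more than 2-fold. INSIG1 (ENSG00000186480.12, chromosome 7, 155297776 to 155310235 on hg38, plus strand), a sterol sensor protein and itself a well-known SREBP target, had 8.80 FPKM in the knockout-labelled library and 20.9 FPKM in wild type, a log2 ratio of -1.16. The same single start and the same end carried this value in both libraries, so no difference in listed events enters it. Its log2 ratio ran from -1.24 to -1.16 over 11 alternative ways of computing gene values. Only the pseudocount and the scalings could move it, because its start sum, end sum and largest event are equal. INSIG2, its less sterol-responsive relative, had 11.9 FPKM in the knockout-labelled library and 18.3 FPKM in wild type, a log2 ratio of -0.58. Both retention proteins were thus further apart between the libraries than the transcription factors they hold back. SREBF1 had 23.9 FPKM in the knockout-labelled library and 31.6 FPKM in wild type, a log2 ratio of -0.39. Of its 6 listed starts in each library only the upstream one, chr17:17836727-17836987, was above 0. SREBF2, whose product favours cholesterol genes, had 19.8 FPKM in the knockout-labelled library and 24.96 FPKM in wild type, a log2 ratio of -0.32. SCAP, the escort, had 23.7 FPKM in the knockout-labelled library and 25.5 FPKM in wild type, a log2 ratio of -0.10, but at the start above 0 in both libraries its log2 ratio was 0.52.

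The promoters of INSIG1 and SREBF2 are shown as those of the member with the largest log2 ratio on the same events in both libraries and of the gene with the only sterol regulatory element match among the 25 members whose windows were searched. The SREBF2 window was picked after its match was seen. INSIG1 is given as chr7:155297628-155297927 on the plus strand and SREBF2 as chr22:41832855-41833154 on the plus strand, both from RefSeq (GRCh38.p14), with capitals as for IDI1.
INSIG1: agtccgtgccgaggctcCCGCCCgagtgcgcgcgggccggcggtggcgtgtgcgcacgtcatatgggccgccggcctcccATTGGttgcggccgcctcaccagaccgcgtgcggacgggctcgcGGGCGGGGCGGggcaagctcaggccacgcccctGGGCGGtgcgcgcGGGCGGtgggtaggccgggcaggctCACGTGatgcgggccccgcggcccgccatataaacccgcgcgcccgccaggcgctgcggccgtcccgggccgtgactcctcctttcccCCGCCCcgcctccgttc
SREBF2: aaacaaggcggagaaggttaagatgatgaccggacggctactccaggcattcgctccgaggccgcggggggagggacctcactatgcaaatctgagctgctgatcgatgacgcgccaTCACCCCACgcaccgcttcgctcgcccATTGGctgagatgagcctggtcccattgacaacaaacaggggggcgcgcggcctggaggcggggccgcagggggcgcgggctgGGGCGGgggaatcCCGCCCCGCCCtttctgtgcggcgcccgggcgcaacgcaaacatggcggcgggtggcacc
Counting the start base as 0, the INSIG1 window has an E-box at -55, a CCAAT box at -170 and 6 GC boxes. In the SREBF2 window the match to TCACNCCAC, with the letters TCACCCCAC, begins at -133, and a CCAAT box follows at -106.

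Genes of uptake and transport were lower in 6 of 6 cases, against 48.5% of all measured genes, with a median log2 ratio of -0.16. At least 1.25-fold lower was 1 gene, against 16.7% of all measured genes. NPC1, which moves cholesterol out of lysosomes, was that gene, at 39.2 FPKM in the knockout-labelled library and 52.0 FPKM in wild type, a log2 ratio of -0.40. Its lysosomal partner NPC2 had 158 FPKM in the knockout-labelled library and 161 FPKM in wild type, a log2 ratio of -0.03. SCARB1, the receptor for high-density lipoprotein, had 194 FPKM in the knockout-labelled library and 201 FPKM in wild type, the highest wild-type level among the members. LRP1, a large endocytic receptor for lipoprotein remnants, had 26.3 FPKM in the knockout-labelled library and 29.1 FPKM in wild type. These receptors differed little, with log2 ratios of -0.05 for SCARB1 and -0.14 for LRP1. MYLIP, an LXR-induced ubiquitin ligase that degrades lipoprotein receptors, had 3.76 FPKM in the knockout-labelled library and 4.38 FPKM in wild type. STARD4, a cytosolic sterol carrier, had 3.11 FPKM in the knockout-labelled library and 4.13 FPKM in wild type. Their log2 ratios were -0.18 and -0.32. Direction depended on the events counted for STARD4 and NPC2. At its start above 0 in both libraries STARD4 had a log2 ratio of 0.23, and by its largest single event NPC2 had 0.20.

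Esterification and efflux genes gave no common direction. SOAT1, which esterifies cholesterol for storage, had 21.5 FPKM in the knockout-labelled library and 20.5 FPKM in wild type, a log2 ratio of 0.06. ABCA1, which loads cholesterol onto apolipoproteins and is a classical LXR target, had 4.83 FPKM in the knockout-labelled library and 7.68 FPKM in wild type, a log2 ratio of -0.57. That ratio depended on 1 event: at its promoter start ABCA1 had 4.83 FPKM in the knockout-labelled library and 3.68 FPKM in wild type, a log2 ratio of 0.32, while a 25-base start inside the gene, at no GENCODE 29 exon boundary, had 3.996 FPKM in wild type alone. SOAT2, the hepatocyte and intestinal esterifying enzyme, had 0.0374 FPKM in the knockout-labelled library and was listed at 0 in wild type, and the efflux pump ABCG1 had 0.144 FPKM in the knockout-labelled library and 0.180 FPKM in wild type. Neither was measured.

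**Figure D2:**
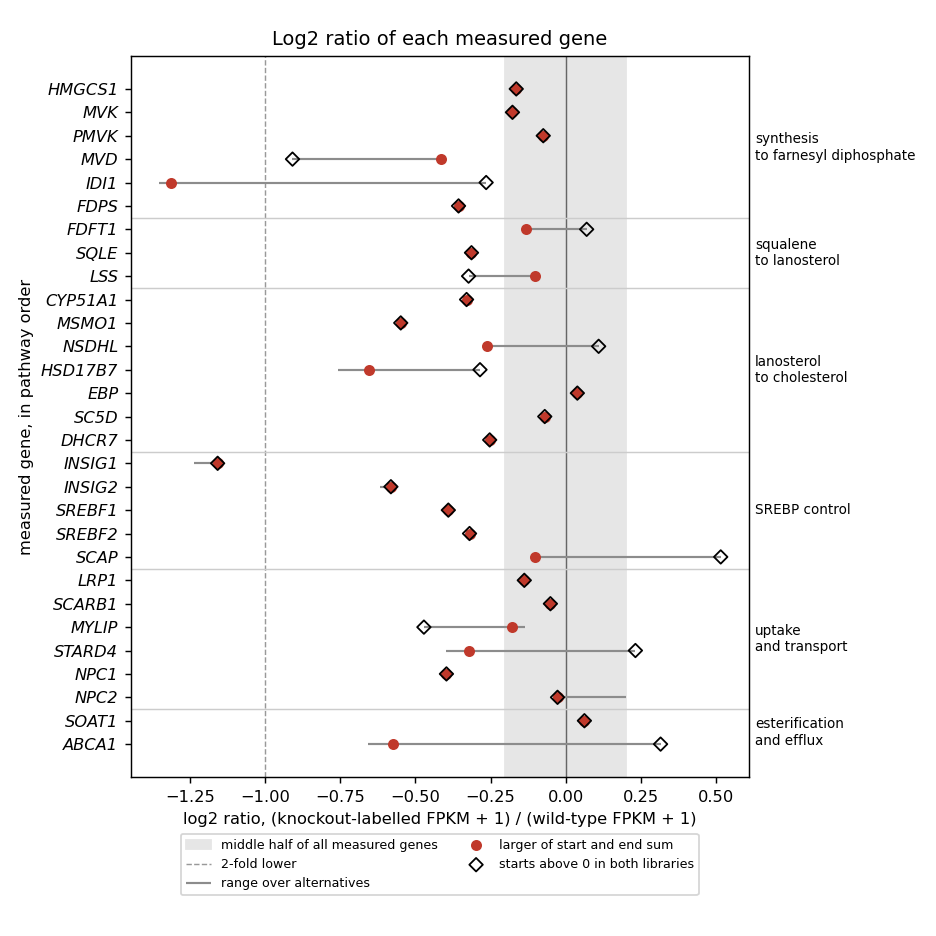
Log2 ratio of knockout-labelled over wild-type values, each with 1 FPKM added, for the 29 measured genes in pathway order. Red points give the value reported, grey lines its range over the alternatives, open diamonds the value from starts above 0 in both libraries, and the shaded band the range between the quartiles of all measured genes (-0.20 to 0.20). INSIG1 stays beyond the dashed 2-fold line under every alternative, though only the pseudocount and the scalings could move it. The diamond of IDI1 lies at -0.26 and that of SCAP at 0.52.

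Several of these ratios depend on start events listed above 0 in 1 library alone. Of the 29 genes, 19 had the same single start above 0 in both libraries. Among these 19, 17 were below 0, with a median log2 ratio of -0.25, whereas of the 6185 measured genes of that kind 48.3% were below 0, with a median of 0.01. In 9 genes a start was above 0 in 1 library alone. FDFT1 had 81.1 FPKM in the knockout-labelled library and 77.2 FPKM in wild type at its shared start, 24.6 FPKM at a second start in wild type alone, and 11.7 FPKM at another in the knockout-labelled library alone. SCAP had 23.7 FPKM in the knockout-labelled library and 16.3 FPKM in wild type at the shared start, with 9.24 FPKM at another in wild type alone. For MVD the shared start had 7.28 FPKM in the knockout-labelled library and 14.6 FPKM in wild type, a log2 ratio of -0.91, and a further start had 3.40 FPKM in the knockout-labelled library alone. For NSDHL the shared start had 29.9 FPKM in the knockout-labelled library and 27.7 FPKM in wild type, and another had 8.399 FPKM in wild type alone. At its shared start HSD17B7 had 4.26 FPKM in the knockout-labelled library and 5.40 FPKM in wild type, a log2 ratio of -0.29. Such starts were in wild type alone in 7 of the 9 genes (ABCA1, FDFT1, HSD17B7, IDI1, NSDHL, SCAP and STARD4) and in the knockout-labelled library alone in 3 (FDFT1, MVD and MYLIP), so they lowered more ratios than they raised. The same counts over all measured genes were not made, so this split cannot be read as particular to these members. Counting shared starts alone, 22 of 29 genes were below 0, against 48.7% of all genes, and SCAP, STARD4, NSDHL, FDFT1 and ABCA1 were then higher in the knockout-labelled library. By that count IDI1, HSD17B7 and ABCA1 no longer reached the mark of 1.25-fold lower, whereas LSS and MYLIP did. Where a gene had 5 FPKM or more of starts in both libraries, the share of a start differed by 20 percentage points or more in 5 of 25 members, IDI1, FDFT1, SCAP, MVD and NSDHL, or 20%. Over all 7244 such genes 18.6% did so, which leaves the members near the background.

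**Figure D3:**
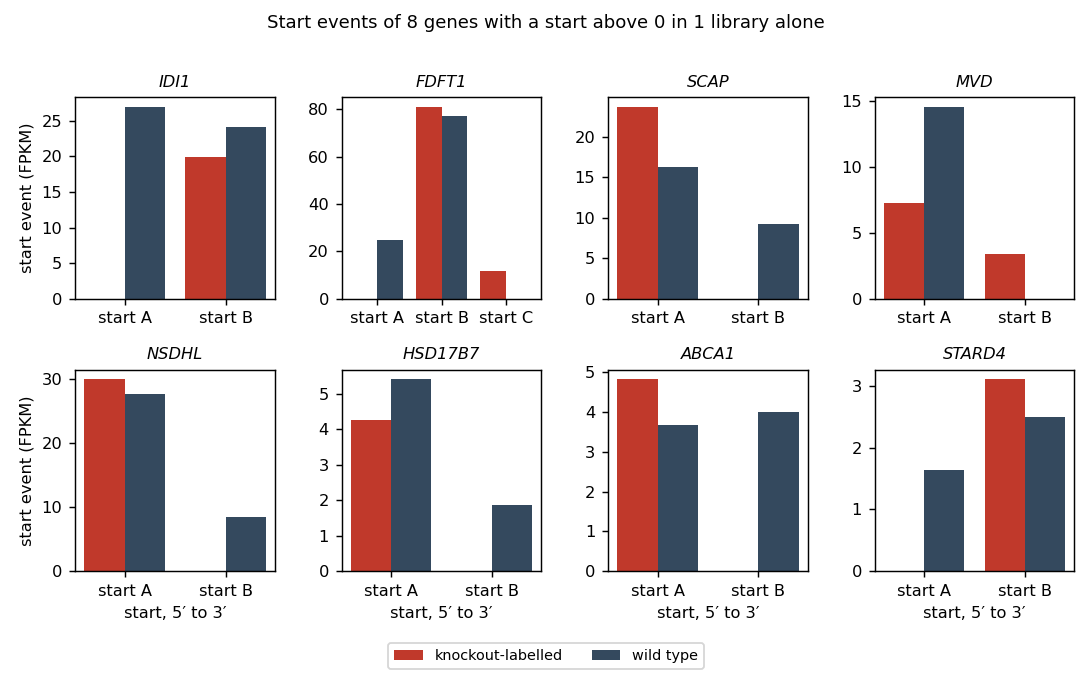
FPKM of each start event above 0 in 8 of the 9 genes with a start in 1 library alone (MYLIP is the ninth), lettered 5′ to 3′ along the gene, with knockout-labelled bars left of wild-type bars. Each panel has its own axis from 0. IDI1 start A has 26.9 FPKM in wild type and no bar in the knockout-labelled library, while start B has 19.9 FPKM in the knockout-labelled library and 24.1 FPKM in wild type.

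Skipped-exon events gave at least 5 FPKM in both libraries for 34 exons in 17 members, and 32 of them were wholly in or wholly out in both libraries. A 59-base exon of HMGCS1 (chr5:43307766-43307824) was included in 39.9% of the summed FPKM of both forms in the knockout-labelled library and in 31.1% in wild type. A 67-base exon of NSDHL was in 26.7% in the knockout-labelled library and in 34.5% in wild type. Of the 34, 0 differed by 20 percentage points or more. A further 6 exons in 4 members were above 0 in both libraries but under 5 FPKM in at least 1 of them, and 1 of these 6 differed by 20 points or more. That exon, in STARD4 (chr5:111507329-111507442), was in all of 3.11 FPKM in the knockout-labelled library and in 55.0% of 2.50 FPKM in wild type. The same exon counts over all measured genes were not made, so these counts cannot be read as particular to the members.

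Neighbouring pathways gave a mixed picture, with 22 of 41 measured genes below 0, 19 above 0 and a median log2 ratio of -0.05. Over all measured genes 48.5% were below 0. Fatty acid targets of SREBP were lower in 8 of 10 cases, against that 48.5%, with a median of -0.20. Of the 10, 4 were at least 1.25-fold lower, against 16.7% of all measured genes. SCD, the stearoyl-CoA desaturase, had 87.7 FPKM in the knockout-labelled library and 174 FPKM in wild type, a log2 ratio of -0.98, and the desaturase FADS2 had 41.6 FPKM in the knockout-labelled library and 67.1 FPKM in wild type, a log2 ratio of -0.68. FASN, fatty acid synthase, differed less, at 120 FPKM in the knockout-labelled library and 135 FPKM in wild type. Of genes of the branch to other isoprenoids 6 of 9 were above 0, with a median of 0.11, where 51.4% of all measured genes were above 0. PGGT1B, a subunit of the geranylgeranyl transferase, had 2.03 FPKM in the knockout-labelled library and 5.64 FPKM in wild type. DHDDS, of dolichol synthesis, had 10.7 FPKM in the knockout-labelled library and 6.504 FPKM in wild type. The log2 ratios of these were -1.13 and 0.64, in opposite directions. Among proteins that cut, anchor or degrade SREBP and its partners 5 of 8 were above 0, against the same 51.4%, with a median of 0.17. ERLIN1, an endoplasmic reticulum membrane protein that binds the SREBP complex, had 30.7 FPKM in the knockout-labelled library and 16.6 FPKM in wild type, a log2 ratio of 0.85. PAQR3, a Golgi protein that binds SCAP and SREBP, had 8.03 FPKM in the knockout-labelled library and 4.82 FPKM in wild type, a log2 ratio of 0.63. LXR receptors and targets were lower in 3 of 3 measured cases, against the same 48.5%. NR1H3, which encodes LXR alpha, had 9.61 FPKM in the knockout-labelled library and 15.4 FPKM in wild type. LPCAT3 had a log2 ratio of -0.12. Of 7 measured sterol transport genes 4 were lower, against the same 48.5%. GRAMD1B had 13.7 FPKM in the knockout-labelled library and 9.01 FPKM in wild type. The lipoprotein receptor VLDLR had 4.04 FPKM in the knockout-labelled library and 5.93 FPKM in wild type. Further sterol enzymes had a median of 0.02 over 4 measured genes, among them FAXDC2, at 1.58 FPKM in the knockout-labelled library and listed at 0 in wild type.

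**Figure D4:**
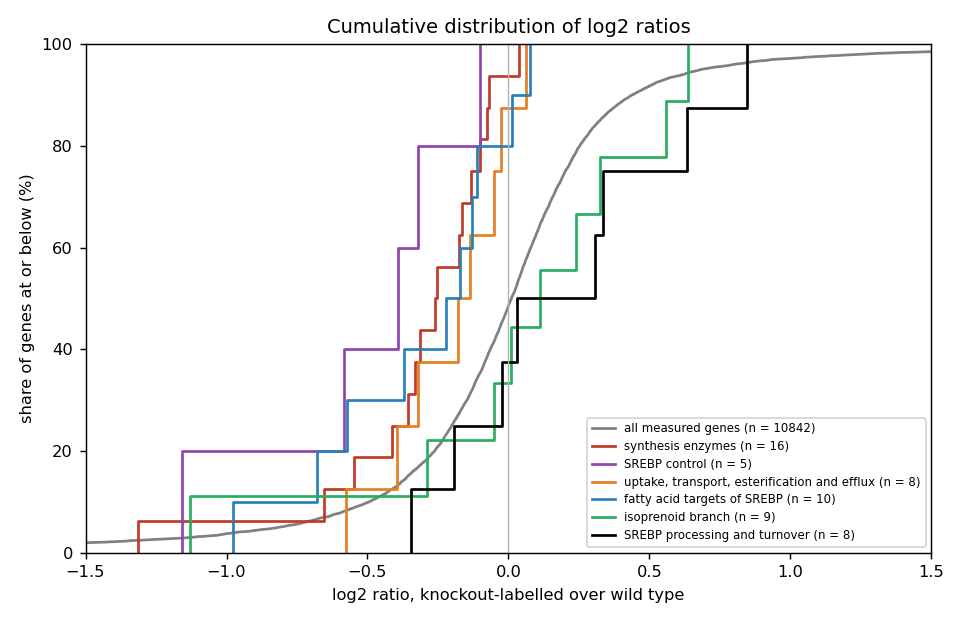
Cumulative share of genes at or below each log2 ratio of knockout-labelled over wild-type values, each with 1 FPKM added, with grey for all 10842 measured genes and a stepped line for each gene group. The lines of synthesis enzymes, SREBP control, uptake to efflux genes and fatty acid targets lie left of the grey line over most of their range, and those of the isoprenoid branch and of SREBP processing lie mostly right of it.

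Promoter letters were compared over the 25 members with a RefSeq window within 500 bases of their leading start and over 7123 measured genes with such a window. The CCAAT box was in 17 members, or 68%, against 37.5% of measured genes and 34.6% of all 35116 windows. A GC box was in 24 members, or 96%, against 75% of measured genes and 45% of all windows. The E-box was in 5 members, ABCA1, INSIG1, LSS, SC5D and SCAP, or 20%, against 10.8% of measured genes and 7.26% of all windows. The sterol regulatory element search matched in 1 member, SREBF2, or 4%, against 1.05% of measured genes and 1.13% of all windows. A match describes letters in a window of 300 bases and not a bound site. Only the letters TCACNCCAC were searched for the sterol regulatory element, so a window without a match may hold an element with other letters.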

How the data were processed

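RNA of LM3 cells was measured in 2 libraries, 1 per genotype, grouped by the genotype in the labels. Libraries were made from poly-A RNA with 12 PCR cycles and read as 100-base pairs, per the labels' protocols. Of build and tools, hg38 and Bowtie 0.12.2 appear in the submitters' processing notes, with no role stated. The authors deposited FPKM values, per the file headers, for each transcript start, transcript end and splicing event. Which program made the events, with which annotation, filters and strand setting, is not given in the sources used here. Without counts the depth is unknown and no interval is given.

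A gene's value was the larger of its summed start and summed end events. Events of multi-gene loci were assigned by the GENCODE 29 exon boundary at the junction, or else to the sole gene overlapping them, and 2.24% of events in the knockout-labelled library and 2.27% in wild type could not be assigned. Log2 ratios used a pseudocount of 1 FPKM, which understates the difference of low genes, and a minimum of 1 FPKM in the larger library. Calls are by size, at 2-fold, and the 1.25-fold mark was added after the values were seen. The members and gene lists were chosen with earlier results of these data known. From the further lists, at most 2 per list were named, those with the largest log2 ratios in size at 5 FPKM or more, and FASN and FAXDC2 were added after its values were seen. Start events were matched by the junction of their exon. Promoters came from RefSeq (GRCh38.p14). The calculation was run on simulated data without noise, in which the starts of a gene always summed to the set value. Agreement was thus fixed by construction, and starts missing from 1 library were not covered. Python 3.11.15, numpy 2.4.6, pandas 2.3.3 and matplotlib 3.10.9 were used.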

Additional observations from a re-analysis of the deposited data

How the results depend on the processing

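Gene values were recomputed under 11 alternatives: a pseudocount of 0.1 FPKM, median-ratio scaling, TPM scaling, start events alone, end events alone, the largest single event, no minimum level, a minimum of 5 FPKM, genes with agreeing start and end sums, genes listed at 0 in 1 library left out, and, chosen after seeing the data, starts above 0 in both libraries. Of 291 ratios of single genes under these, 283 kept their direction and their side of the 2-fold mark, and 21 members were below 0 in every setting that gave them a value. Much of that count was fixed in advance. Changing the minimum level, requiring agreeing sums or leaving out genes at 0 alters only which genes are kept, not their ratios. Start events alone and end events alone also give the same ratio where the 2 sums of a gene are equal. Left out of the 291 are 2 values with end events alone, which have no fold because wild type is listed at 0: EBP, at 117 FPKM in the knockout-labelled library, and ABCA1, at 4.83 FPKM there and so turned in direction. By the size rule these 2 make the number at least 2-fold higher 2 with end events alone. The number at least 2-fold lower was 1 with shared starts, INSIG1, where IDI1 had -0.26. The median log2 ratio of uptake, transport, esterification and efflux genes, -0.16 as reported, was -0.094 with the largest single event, with no minimum level and with a minimum of 5 FPKM, -0.32 with agreeing sums and -0.039 with shared starts. Reversed were NPC2 (0.20) and ABCA1 (0.22) with the largest single event, and FDFT1 (0.07), NSDHL (0.11), SCAP (0.52), STARD4 (0.23) and ABCA1 (0.32) with shared starts. The cause of these moves was not tested beyond the events named. No paired analysis was possible because each genotype has 1 library, and for the same reason no replicate could be left out.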
